A study of Mus musculus with 6 samples.

Results

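Liver identity is maintained by a small set of transcription factors that bind the promoters and enhancers of hepatocyte genes. The 9 liver-enriched transcription factors described here are Hnf4a, Foxa1, Foxa2, Foxa3, Cebpa, Cebpb, Onecut1, Prox1 and Nr5a2. They were chosen by name, as the rows of the expression tables that carry these gene symbols, and not by their levels or differences. All 9 were listed once in every mouse, among 47232 gene names used, and all 9 passed the filter on low values that left 18619 tested gene names.

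Expression was measured by RNA-Seq of poly(A) RNA from liver of 6 house mice (Mus musculus). The 3 laboratory mice were inbred C57BL/6 males of a narrow age range, killed on arrival from a breeder, and the 3 wild mice were live-trapped outbred adults kept for some months in captivity under natural day length before sampling. Of the wild mice, number 1 was male while numbers 2 and 3 were female, so sex differed in part with origin. Housing and genetic background differed fully with origin and cannot be told apart from it. The age of the wild mice is given only as adult, so a part of age cannot be told apart either. Wild mouse 3 was trapped at another site than wild mice 1 and 2. Both groups were otherwise untreated, and the RNA came from frozen tissue that had not been in formalin. The frozen liver was set aside when each specimen was prepared. The laboratory specimens had been archived for longer than the wild ones when their fixed tissue was sampled. Date of preparation therefore differed fully with origin, and time in frozen storage may have differed too. Neither can be told apart from origin. Each mouse is 1 biological replicate measured once. Because whole liver was used, fewer cells of a type and less RNA per cell cannot be told apart.

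As background, these factors form a densely connected network in the liver. HNF4A, a nuclear receptor, and the forkhead proteins FOXA1, FOXA2 and FOXA3, which can open compacted chromatin, occupy many of the same regulatory regions as the leucine zipper proteins C/EBPα and C/EBPβ. ONECUT1 (HNF6) and PROX1 act in liver development as well as in the adult organ, and NR5A2 (LRH-1) is a nuclear receptor best known for its control of bile acid synthesis and reverse cholesterol transport.

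Promoter sequences are shown for the members on which the results turn, so that their annotated starts can be compared. Each window runs from 250 bases before to 50 bases after a RefSeq transcription start on GRCm38.p6 and is printed 5′ to 3′ on the strand of the gene. All 9 members matched the RefSeq table, with 14 windows among them. Capitals mark matches on either strand to short letter patterns, searched as TGTTTNC for the FOXA factors, ATCAAT for ONECUT factors, TTGCNNAA for C/EBP factors, AAGGTCA for NR5A2, CAAAGTCCA for HNF4A, TATAAA for a TATA box, CCAAT for a CCAAT box and GGGCGG for a GC box. Nr5a2 and Hnf4a have 2 annotated starts each, of which the upstream one is given first.
Nr5a2 upstream start (chr1:136960399-136960698, minus strand): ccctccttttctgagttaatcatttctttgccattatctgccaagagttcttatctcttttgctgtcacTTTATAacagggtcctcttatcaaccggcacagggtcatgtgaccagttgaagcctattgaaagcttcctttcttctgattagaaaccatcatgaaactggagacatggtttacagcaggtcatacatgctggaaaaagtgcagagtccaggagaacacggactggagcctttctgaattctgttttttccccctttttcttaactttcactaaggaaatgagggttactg
Nr5a2 downstream start (chr1:136953581-136953880, minus strand): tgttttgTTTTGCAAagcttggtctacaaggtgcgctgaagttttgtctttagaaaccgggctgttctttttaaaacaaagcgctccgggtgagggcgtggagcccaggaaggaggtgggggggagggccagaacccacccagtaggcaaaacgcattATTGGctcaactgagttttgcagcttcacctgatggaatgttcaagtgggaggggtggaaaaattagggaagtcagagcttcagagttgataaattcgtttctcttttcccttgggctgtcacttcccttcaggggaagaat
Cebpb (chr2:167688665-167688964, plus strand): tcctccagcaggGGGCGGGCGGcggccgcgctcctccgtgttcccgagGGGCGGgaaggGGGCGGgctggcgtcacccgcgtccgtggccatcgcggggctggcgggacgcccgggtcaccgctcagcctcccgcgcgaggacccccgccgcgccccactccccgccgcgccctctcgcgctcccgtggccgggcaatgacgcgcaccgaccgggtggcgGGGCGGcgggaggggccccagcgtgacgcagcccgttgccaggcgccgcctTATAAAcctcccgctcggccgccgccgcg
Hnf4a upstream start (chr2:163506607-163506906, plus strand): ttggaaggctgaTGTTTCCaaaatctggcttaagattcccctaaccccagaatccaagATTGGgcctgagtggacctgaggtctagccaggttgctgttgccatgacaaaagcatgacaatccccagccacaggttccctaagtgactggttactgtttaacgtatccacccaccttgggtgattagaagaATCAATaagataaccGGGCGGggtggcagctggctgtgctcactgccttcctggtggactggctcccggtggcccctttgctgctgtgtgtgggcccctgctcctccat
Hnf4a downstream start (chr2:163546905-163547204, plus strand): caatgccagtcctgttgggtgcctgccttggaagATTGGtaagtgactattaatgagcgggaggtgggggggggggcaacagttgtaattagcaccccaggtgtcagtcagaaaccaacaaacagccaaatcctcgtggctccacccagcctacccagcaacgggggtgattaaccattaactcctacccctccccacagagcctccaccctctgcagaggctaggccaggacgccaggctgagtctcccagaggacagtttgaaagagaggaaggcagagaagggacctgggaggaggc
Foxa2 upstream start (chr2:148046920-148047219, minus strand): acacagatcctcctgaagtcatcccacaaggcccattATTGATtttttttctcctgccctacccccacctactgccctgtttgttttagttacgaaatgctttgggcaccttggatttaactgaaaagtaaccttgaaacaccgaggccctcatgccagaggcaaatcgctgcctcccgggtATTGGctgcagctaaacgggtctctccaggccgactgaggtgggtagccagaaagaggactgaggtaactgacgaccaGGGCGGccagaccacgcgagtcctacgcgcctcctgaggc

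The windows differed widely in base composition. The Cebpb window had a GC content of 80.7% and 50 CpG dinucleotides, with 5 GC box matches, of which the 2 farthest upstream overlap each other. In the upstream Nr5a2 window the GC content was 42.0% with 2 CpG dinucleotides, and in the downstream Nr5a2 window it was 49.0% with 7, against a median of 52.7% and 7 over 32851 mouse windows of the same length. The ONECUT letters were found in the upstream windows of Hnf4a and Foxa2, 59 bases before the start in Hnf4a, and in 7.54% of all windows. The FOXA letters were found in 3 of the 14 member windows (upstream Hnf4a, Foxa1 and downstream Prox1) and in 20.5% of all windows, and the C/EBP letters in 1 (downstream Nr5a2) and in 10.8% of all. GC box letters stood in 10 of the 14 member windows and in 35.7% of all windows, TATA box letters in 6 and in 13.6%, and CCAAT box letters in 7 and in 37.4%. Neither the NR5A2 letters, present in 4.72% of all windows, nor the HNF4A letters, present in 0.475%, were found in a member window. A match is a description of letters only, and the gene-level values that follow do not resolve which start was used.

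Levels were given by the authors as FPKM (fragments scaled to transcript length and library size) and as zFPKM, the log2 FPKM of a gene less the mode of its mouse's distribution, divided by an SD of that distribution. Mice differed as a whole on these scales. The median of log2(FPKM + 0.1) over the tested genes was -0.11, 0.15 and 0.36 in laboratory mice 1, 2 and 3 and 0.73, 0.87 and 1.03 in wild mice 1, 2 and 3, so that the median gene was 0.47 higher in the wild mice on that scale, and 37.9% of all tested genes were called higher in the wild mice and 8.19% higher in the laboratory mice. On zFPKM the median difference was -0.005, and 7.28% and 7.17% were called. The median zFPKM was lower in laboratory mouse 3 (-0.75) and wild mouse 1 (-0.70) than in the other 4 mice (-0.28 to -0.17). A further scale, log2(FPKM + 0.1) less the median of the mouse, is called median-centred below, and on it the median difference was -0.27. Centring lowers every difference of wild minus laboratory by the same amount. A gene near the 0.1 pseudocount in all mice therefore stands lower in the wild mice by construction. The median log2 difference also grew with transcript length, from 0.13 in 2133 genes under 1000 bases to 0.72 in 4368 genes of 4000 to 8000 bases. Read counts were not used here, so the depth behind each value is unknown. SDs and permutation tests rest on the 3 animals in each group. Standard errors of limma also draw on a trend of spread with level over all tested genes. In the zFPKM fit they followed that trend in place of a gene's own spread.

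On the deposited zFPKM, none of the 9 factors passed the test between wild and laboratory mice (limma, adjusted p under 0.05), against 14.4% of all tested genes called in either direction. An unadjusted limma p under 0.05 was found for 3 of the 9, against 4782 of all 18619 tested genes. They were Nr5a2, with a higher mean zFPKM in the wild mice, and Cebpa and Cebpb, with higher means in the laboratory mice. On log2(FPKM + 0.1), where the whole distribution was shifted, 5 of the 9 were called higher in the wild mice, against 37.9% of all tested genes. On median-centred values 2 were called, Nr5a2 higher in the wild mice and Cebpb higher in the laboratory mice, against 18.6% and 28.7% of all tested genes in those directions. In FPKM, 5 of the 9 (Hnf4a, Foxa2, Onecut1, Prox1 and Nr5a2) were higher in every wild mouse than in every laboratory mouse, against 43.7% of all tested genes, and no member was the other way, against 12.1%. In zFPKM the groups stood apart for 1 of the 9, Nr5a2, against 14.1% of all tested genes higher in the wild mice without overlap.

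**Figure D1:**
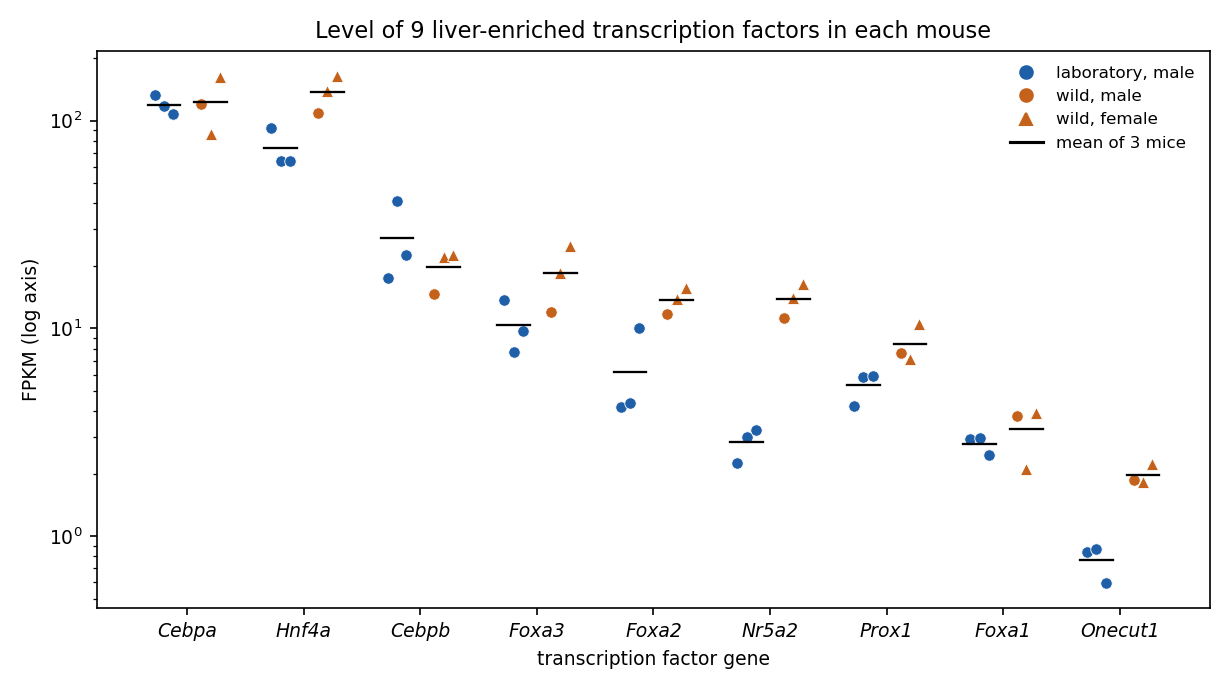
FPKM of the 9 liver-enriched transcription factors (log axis) in each of the 6 mice, with laboratory mice in blue, wild mice in orange, males as circles, females as triangles and the mean of 3 mice as a black line. Cebpa and Hnf4a lie between 64.0 and 164 FPKM and Onecut1 between 0.599 and 2.22 FPKM, and Nr5a2 has the widest gap between the groups, from 3.23 FPKM in the highest laboratory mouse to 11.2 FPKM in the lowest wild mouse.

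Nr5a2 encodes the nuclear receptor LRH-1, which activates genes of bile acid and cholesterol handling. It lies at chr1:136842562-136960448 on the minus strand of GRCm38.p6, and its longest transcript has 9 exons and 4733 bases. Its level was 2.26, 3.003 and 3.23 FPKM in laboratory mice 1, 2 and 3 and 11.2, 14.1 and 16.3 FPKM in wild mice 1, 2 and 3. The lowest wild mouse, which was the male, was far above the highest laboratory mouse. Means were 2.83 ± 0.507 FPKM in the laboratory mice and 13.9 ± 2.52 FPKM in the wild mice (SD, n = 3 each), a 4.89-fold ratio, with a two-sided exact permutation p of 0.1, the smallest that 3 mice against 3 allow.

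The size of the Nr5a2 difference depended on the scale, and it was positive on zFPKM and in all 22 alternatives to that fit. The difference of wild minus laboratory was 2.25 ± 0.22 (SE) on log2(FPKM + 0.1) with a limma adjusted p of 0.000223, and 1.51 ± 0.18 on median-centred values with a limma adjusted p of 0.000651. In zFPKM the laboratory mice stood at 0.22, 0.26 and -0.17 and the wild mice at 0.36, 0.80 and 0.78. The groups did not overlap there either, but the gap between laboratory mouse 2 and wild mouse 1 was small, and the difference of 0.54 ± 0.21 had a limma adjusted p of 0.0545. Setting the median zFPKM of each mouse to 0, which called 13.9% of all tested genes higher and 14.4% lower in the wild mice, gave 0.51 ± 0.08 for Nr5a2 with a limma adjusted p of 0.00335, and removing each mouse's trend with transcript length from log2(FPKM + 0.1), which called 23.9% higher and 21.9% lower, gave 1.54 ± 0.16 with a limma adjusted p of 0.000396. In rank, Nr5a2 stood at the 65.9th to 67.8th percentile of tested genes in the laboratory mice and at the 78.6th to 82.9th in the wild mice.

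Because all laboratory mice were male, a fit with sex as a covariate compares them by origin with 1 wild male alone. Such a fit gives the same difference as males alone, and its error cannot show how wild males vary. Wild mouse 1 was the only wild male. Its Nr5a2 level of 11.2 FPKM was above all 3 laboratory males, and on median-centred values the fit with sex as a covariate gave a difference of 1.37 ± 0.25 with a limma adjusted p of 0.00795. On zFPKM, where wild mouse 1 and laboratory mouse 3 had low medians, the same covariate lowered the difference to 0.26 ± 0.24 with a limma adjusted p of 0.558. Leaving out wild mouse 1 on zFPKM raised it to 0.69 with a limma adjusted p of 0.0323.

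Hnf4a, at chr2:163506811-163572907 on the plus strand, encodes the nuclear receptor that occupies the promoters of a large share of hepatocyte genes, and its longest transcript has 10 exons and 4362 bases. It stood at 91.9, 64.0 and 64.2 FPKM in laboratory mice 1, 2 and 3 and at 109, 138 and 164 FPKM in wild mice 1, 2 and 3. Every wild mouse was above every laboratory mouse in FPKM. The means of 73.4 ± 16.0 and 137 ± 27.4 FPKM (SD, n = 3 each) gave a 1.87-fold ratio with a two-sided exact permutation p of 0.1, and the limma difference on log2(FPKM + 0.1) was 0.90 ± 0.21 with an adjusted p of 0.0107. Relative to the other genes of each mouse, the Hnf4a values of the groups overlapped. Its percentile was 95.7 to 97.0 in the laboratory mice and 95.9 to 97.0 in the wild mice, the median-centred difference was 0.16 ± 0.28, and the zFPKM difference was 0.06 ± 0.12 with a limma adjusted p of 0.819. The gene shares 34911 bases with Hnf4aos on the opposite strand, which stood at 0.885 to 7.70 FPKM, and since the sources used here do not state whether counting used the strand, reads of the pair cannot be told apart.

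The 3 FOXA genes encode forkhead pioneer factors with overlapping binding in liver. Foxa2 (chr2:148042877-148046969, minus strand) stood at 4.18, 4.39 and 10.0 FPKM in laboratory mice 1, 2 and 3 and at 11.8, 13.8 and 15.6 FPKM in wild mice 1, 2 and 3. The groups did not overlap, but laboratory mouse 3 was much nearer to the wild mice than to its own group. Means were 6.20 ± 3.32 and 13.7 ± 1.92 FPKM (SD, n = 3 each), a 2.22-fold ratio with a two-sided exact permutation p of 0.1. On log2(FPKM + 0.1) the difference was 1.25 ± 0.34 with a limma adjusted p of 0.0193, on median-centred values 0.51 ± 0.26 with 0.145, and on zFPKM, where the groups overlapped, 0.17 ± 0.19 with 0.630.

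Foxa3 (chr7:19013283-19023539, minus strand), the most abundant of the FOXA transcripts by mean, stood at 13.8, 7.69 and 9.76 FPKM in laboratory mice 1, 2 and 3 and at 12.0, 18.5 and 24.9 FPKM in wild mice 1, 2 and 3. The groups overlapped, since laboratory mouse 1 was above wild mouse 1. The mean ratio was 1.77 with a two-sided exact permutation p of 0.2, and the zFPKM difference was 0.03 ± 0.17, with its sign turning to -0.004 when each mouse's median zFPKM was set to 0. Foxa1 (chr12:57540628-57548029, minus strand), the FOXA member best known from hormone-responsive tissues, was the lowest of the 3 in every mouse. It stood at 2.93, 2.98 and 2.45 FPKM in laboratory mice 1, 2 and 3 and at 3.80, 2.10 and 3.94 FPKM in wild mice 1, 2 and 3. Wild mouse 2 was below all laboratory mice and the other 2 wild mice were above them. Its direction turned with the scale, from 0.18 ± 0.29 on log2(FPKM + 0.1) to -0.56 ± 0.32 on median-centred values and -0.16 ± 0.25 on zFPKM, and it passed the test on none of them. Part of Foxa1, 1326 bases, overlaps Ttc6 on the opposite strand, which stood at 0.0688 to 1.17 FPKM, and reads of the shared bases cannot be told apart.

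Cebpa and Cebpb encode leucine zipper factors that can pair with each other. C/EBPα is required for metabolic genes of the mature hepatocyte and C/EBPβ is induced in the acute phase response and after partial hepatectomy. Both genes have 1 exon. Cebpa (chr7:35119293-35121928, plus strand) stood at 132, 117 and 107 FPKM in laboratory mice 1, 2 and 3 and at 120, 85.7 and 162 FPKM in wild mice 1, 2 and 3. The wild mice spanned the laboratory mice, and the means of 119 ± 12.6 and 123 ± 38.4 FPKM (SD, n = 3 each) did not differ beyond their spread (two-sided exact permutation p = 0.9). The difference was 0.004 ± 0.24 on log2(FPKM + 0.1), negative on the other scales at -0.74 ± 0.29 median-centred (limma adjusted p = 0.0641) and -0.25 ± 0.12 on zFPKM (limma adjusted p = 0.164).

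Cebpb (chr2:167688915-167690432, plus strand) was the member with the lowest ratio of wild to laboratory FPKM. It stood at 17.5, 41.1 and 22.7 FPKM in laboratory mice 1, 2 and 3 and at 14.7, 22.1 and 22.6 FPKM in wild mice 1, 2 and 3. The groups overlapped in FPKM, and laboratory mouse 2 was alone at its level. The mean of 27.1 ± 12.4 FPKM in the laboratory mice was 1.37-fold that of 19.8 ± 4.46 FPKM in the wild mice (two-sided exact permutation p = 0.4). Where the median gene was 0.47 higher in the wild mice on log2(FPKM + 0.1), Cebpb differed by -0.38 ± 0.33. On median-centred values it was lower in the wild mice, with a difference of -1.12 ± 0.30 with a limma adjusted p of 0.0168, and on zFPKM the difference was -0.38 ± 0.16 with a limma adjusted p of 0.0821. The longest Cebpb transcript, of 1504 bases, was the shortest among the members, and with the trend of each mouse with transcript length removed the log2 difference was -0.88 ± 0.28 with a limma adjusted p of 0.037. Without laboratory mouse 2, the highest, the zFPKM difference was -0.24 with a limma adjusted p of 0.56, and without wild mouse 1, the lowest wild mouse, it was -0.23 with a limma adjusted p of 0.395. With sex as a covariate it was -0.70 ± 0.21 with a limma adjusted p of 0.0618, and in males alone -0.70 with 0.297.

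Onecut1 (chr9:74861921-74889648, plus strand), which encodes HNF6 and acts upstream of several of the other factors in liver and bile duct development, was the lowest member in every mouse. It stood at 0.842, 0.872 and 0.599 FPKM in laboratory mice 1, 2 and 3 and at 1.86, 1.83 and 2.22 FPKM in wild mice 1, 2 and 3. All wild mice were above all laboratory mice in FPKM, with a 2.56-fold ratio of the means and a two-sided exact permutation p of 0.1. The limma difference was 1.26 ± 0.27 on log2(FPKM + 0.1) with an adjusted p of 0.0076, but 0.52 ± 0.30 on median-centred values with 0.186 and 0.25 ± 0.32 on zFPKM with 0.688. The quantification program's bounds, deposited for 5 of the mice, ran from 0.548 to 1.20 FPKM in laboratory mouse 2 and from 1.41 to 2.31 FPKM in wild mouse 1. Within the gene lies the uncharacterized Gm38678, which stood at or under 0.0445 FPKM.

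Prox1 (chr1:190118035-190170827, minus strand) encodes a homeodomain factor of hepatocytes and lymphatic endothelium that can repress targets of HNF4A and NR5A2. Its values were 4.22, 5.81 and 5.92 FPKM in laboratory mice 1, 2 and 3 and 7.58, 7.15 and 10.4 FPKM in wild mice 1, 2 and 3. Wild mice were all above laboratory mice in FPKM, with a 1.58-fold ratio of the means and a two-sided exact permutation p of 0.1, and the limma difference on log2(FPKM + 0.1) was 0.65 ± 0.22 with an adjusted p of 0.0474. This was close to the shift of the median gene, and the direction turned on the other scales, to -0.10 ± 0.19 median-centred and -0.02 ± 0.20 on zFPKM. The longest Prox1 transcript, of 7913 bases, lies in a length range with a large median difference, and with the length trend removed from log2(FPKM + 0.1) the difference was -0.16 ± 0.17 with a limma adjusted p of 0.478. Prox1 shares 532 bases with the uncharacterized LOC102632463, which stood at 5.79 to 10.9 FPKM, as high as Prox1 itself, and reads of the shared bases cannot be told apart.

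**Figure D2:**
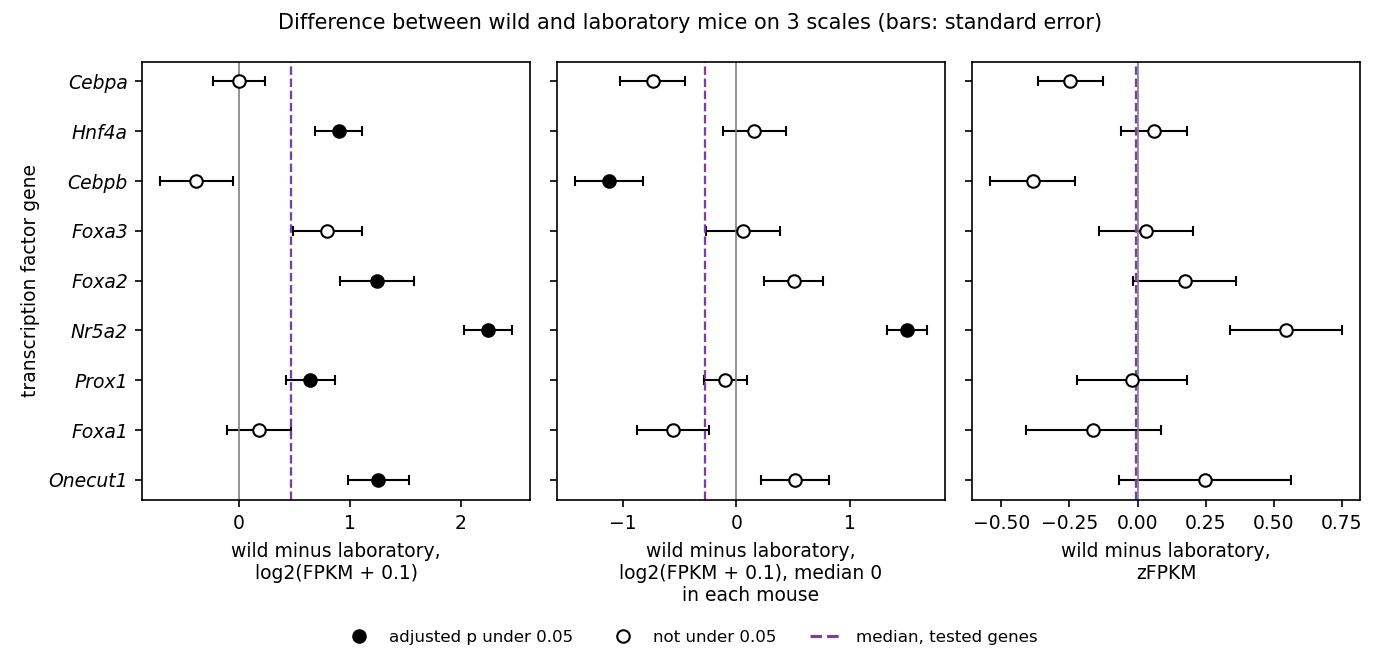
Difference of wild minus laboratory mice for the 9 factors on log2(FPKM + 0.1) (left), on the same values after median-centring (middle) and on zFPKM (right), with standard errors from limma, filled points for an adjusted p under 0.05 and the median difference of all tested genes as a dashed line. Nr5a2 lies farthest above the dashed line and Cebpb farthest below it in all 3 panels, and Foxa1, Cebpa and Prox1 change sign between the left panel and the others.

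Ordered by mean FPKM, which is scaled to transcript length and so can be compared between genes within a mouse, the laboratory mice ran Cebpa, Hnf4a, Cebpb, Foxa3, Foxa2, Prox1, Nr5a2, Foxa1 and Onecut1. Cebpa was above Hnf4a in all 3 laboratory mice, by 1.44-fold to 1.83-fold, and Hnf4a was above Cebpb in all 3. Foxa3 was above Prox1 in all 3 laboratory mice, but Foxa2 could not be placed, since Foxa3 was above Foxa2 in 2 of 3 and Foxa2 above Prox1 in 1 of 3. Nr5a2 and Foxa1 could not be ordered either, with Nr5a2 higher in 2 of 3 laboratory mice. In the wild mice the order was Hnf4a, Cebpa, Cebpb, Foxa3, Nr5a2, Foxa2, Prox1, Foxa1 and Onecut1. There Hnf4a was above Cebpa in 2 of 3 mice, and Cebpb above Foxa3 in 2 of 3. Nr5a2 and Foxa2 could not be ordered in the wild mice, with ratios of Nr5a2 to Foxa2 from 0.954 to 1.04, while both were above Prox1 by mean. Foxa1 was above Onecut1 in all 6 mice, by 3.42-fold to 4.08-fold in the laboratory mice and by 1.15-fold to 2.04-fold in the wild mice.

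Ratios of one member to another within the same mouse do not depend on a single scale factor per mouse. They can still carry the trend with transcript length. The longest transcripts have 1504 bases for Cebpb, 2626 for Cebpa, 4733 for Nr5a2 and 4362 for Hnf4a. Of 11 such ratios, 8 of them to Hnf4a, 3 did not overlap between the groups, all of them among the 8. Of all other tested genes divided by Hnf4a, 17.9% stood higher in the wild mice without overlap and 23.0% higher in the laboratory mice, against 1 and 2 of the 8 members. None of the 11 ratios had a p under 0.05, since 3 mice against 3 cannot go below 0.1 (two-sided exact permutation test, adjusted over the 11 ratios to 0.367 at the lowest). Nr5a2 stood at 0.0246, 0.0469 and 0.0504 of Hnf4a in laboratory mice 1, 2 and 3 and at 0.103, 0.102 and 0.0994 in wild mice 1, 2 and 3. The wild mice agreed closely, with an SD of 0.03 in the log2 ratio against 0.57 in the laboratory mice, and the ratio was 2.62-fold higher in the wild mice. Cebpb over Hnf4a went the other way. It was 0.190, 0.643 and 0.353 in the laboratory mice against 0.135, 0.160 and 0.138 in the wild mice, 2.44-fold higher in the laboratory mice. Cebpa over Hnf4a was 1.44, 1.83 and 1.67 in the laboratory mice against 1.101, 0.619 and 0.992 in the wild mice, 1.86-fold higher in the laboratory mice. The other ratios overlapped between the groups, including Foxa2 over Hnf4a, Onecut1 over Hnf4a and Cebpb over Cebpa.

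**Figure D3:**
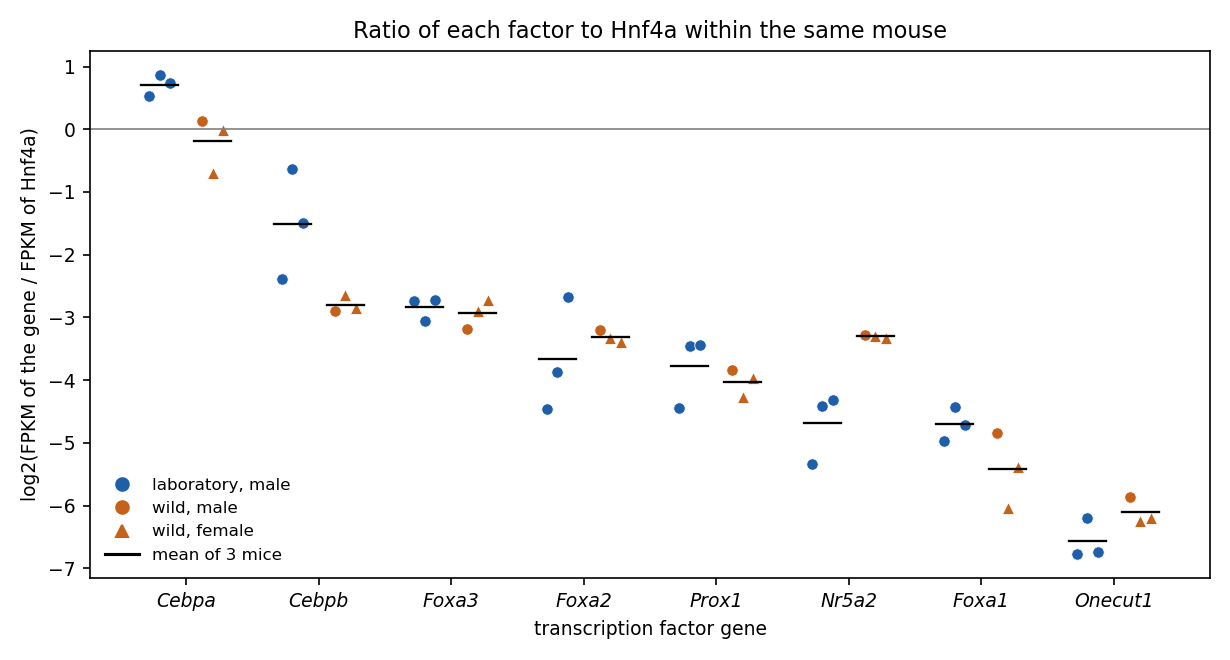
Log2 ratio of the FPKM of 8 factors to the FPKM of Hnf4a in the same mouse, with laboratory mice in blue, wild mice in orange, males as circles, females as triangles and the mean of 3 mice as a black line. Nr5a2 is higher and Cebpa and Cebpb are lower relative to Hnf4a in every wild mouse than in any laboratory mouse, and the other 5 ratios overlap.

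Among 22 other transcription factors of the liver, 20 were tested, and 1 passed the test on zFPKM. Nr1h4, which encodes the bile acid receptor FXR, was lower in the wild mice, with a difference of -0.51 ± 0.13 with a limma adjusted p of 0.00217, at 52.8, 63.4 and 95.6 FPKM in the laboratory mice against 36.5, 38.6 and 52.0 FPKM in the wild mice. The highest of the list, Atf5, stood at 120 ± 40.9 FPKM in the laboratory mice and 290 ± 56.4 FPKM in the wild mice (SD, n = 3 each) and did not pass on zFPKM (limma adjusted p = 0.325). Hnf4g, the paralogue of Hnf4a that is known mainly from intestine, was the lowest tested, at 0.0107 to 0.0798 FPKM, and Onecut3 was listed at 0 in all mice. Onecut2, the other ONECUT gene of the liver, stood at 2.24 to 2.97 FPKM in the laboratory mice and 3.84 to 5.79 FPKM in the wild mice, above Onecut1 in both groups. On median-centred values 4 of the 20 were called higher in the wild mice (Foxo1, Klf15, Creb3l3 and Tbx3), against 18.6% of all tested genes. Another 3, Nr1h4 and Hnf4g among them, were called higher in the laboratory mice, against 28.7%. Hnf4g stood under the 0.1 pseudocount in every mouse. Without centring its log2 difference was -0.28 ± 0.20 with a limma adjusted p of 0.285. Nr0b2, which encodes the repressor SHP, had a zFPKM difference of 0.02.

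Textbook target genes of the factors were read beside them, without a test of the lists. Their differences with sex as a covariate again rest on wild mouse 1 alone among the wild mice. The NR5A2 list, of 7 tested genes, had 1 gene called higher and 1 lower in the wild mice on zFPKM. Of all tested genes, 7.28% were called higher and 7.17% lower. The median difference of the list was 0.25 against -0.005 over all tested genes. Cyp7a1, the rate-limiting enzyme of bile acid synthesis, rose by 0.68 ± 0.18 in zFPKM with a limma adjusted p of 0.00231, from 2.74, 6.22 and 5.08 FPKM in the laboratory mice to 23.6, 40.9 and 24.9 FPKM in the wild mice. With sex as a covariate the Cyp7a1 difference fell to 0.43 and the list median to 0.04, against -0.27 over all tested genes. On median-centred values 4 of the 7 were called higher in the wild mice (Cyp7a1, Cyp8b1, Abcg8 and Scarb1), against 18.6% of all tested genes. Another 1 of the 7 was called lower there, against 28.7%. The list median was 0.75 against -0.27. Cyp8b1, the sterol 12α-hydroxylase and the highest of the list, stood at 91.6 ± 32.3 FPKM in the laboratory mice and 251 ± 53.9 FPKM in the wild mice (SD, n = 3 each).

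Of 14 tested HNF4A target genes, 3 were higher and 4 lower in the wild mice on zFPKM, against 7.28% and 7.17% of all tested genes. Lower were the apolipoproteins Apoa1, Apoc3 and Apoa2 and the thyroxine carrier Ttr, with differences of -0.68, -0.68, -0.57 and -0.53, and all of them stood at 5199 FPKM or more in every mouse. Apoa4 was higher by 0.66, as were the lipoprotein backbone Apob and the coagulation factor F7. These calls depended on the fit. With sex as a covariate none was called higher, with limma adjusted p of 0.0518 for Apoa4, 0.207 for Apob and 0.177 for F7, and Apoa2 was no longer called lower (0.163). With each mouse's median zFPKM set to 0, none of the 4 was called lower. Their differences there were -0.56 to -0.72, with limma adjusted p of 0.598 to 0.805. Their limma standard errors there were 0.94 to 1.62, against 0.074 to 0.079 in the reported zFPKM fit. In zFPKM the groups did not overlap for any of the 4. Apob was no longer called higher at that setting (limma adjusted p = 0.12). The list median was 0.04 on zFPKM and 0.12 on median-centred values, against -0.005 and -0.27 over all tested genes.

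The 6 tested FOXA target genes had 2 higher and 1 lower on zFPKM. Tat, the tyrosine aminotransferase, rose from 56.96, 91.7 and 148 FPKM in the laboratory mice to 558, 975 and 521 FPKM in the wild mice, with a zFPKM difference of 0.70 and a limma adjusted p of 7.09e-09, and Igfbp1, a fasting-induced binding protein of insulin-like growth factors, by 0.64. Ttr was the highest of this list and the one that was lower, and Afp, the fetal serum protein, was its lowest and did not pass. Igfbp1 was not called with sex as a covariate (limma adjusted p = 0.288), and Tat, Igfbp1 and Ttr were not called with each mouse's median zFPKM set to 0 (limma adjusted p = 0.0636, 0.0766 and 0.708). At that setting their limma standard errors were 0.24, 0.23 and 1.02, against 0.11, 0.15 and 0.078 in the reported zFPKM fit. Among 4 tested C/EBPα targets, 1 (Tat) was called, while Pck1, the gluconeogenic enzyme and highest of the list, and Gys2, the liver glycogen synthase and its lowest, did not pass. Of 9 tested C/EBPβ and acute phase genes, 2 were higher (Crp and Lcn2) and 3 lower (Orm2, Orm1 and Hp) in the wild mice on zFPKM, with a median difference of 0.01, though Hp turned to 0.02 on log2(FPKM + 0.1). Crp was higher by 0.80 and Orm2, an acute phase glycoprotein, lower, at -0.90. Hp was the highest and Lcn2 the lowest of that list, and Lcn2 ranged from 3.10 FPKM in laboratory mouse 3 to 124 FPKM in wild mouse 3 and overlapped between the groups. With sex as a covariate Orm2 alone of these 5 was called (limma adjusted p = 0.00934) and Lcn2 turned to -0.72, and with each mouse's median zFPKM set to 0 Orm2 and Crp were called. Among the 7 tested ONECUT1 targets, those called included Cyp7a1, higher in the wild mice, and Ttr, lower, with the same limits as above, and Foxa2 and Hnf4a, which are in this list, were described above.

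**Figure D4:**
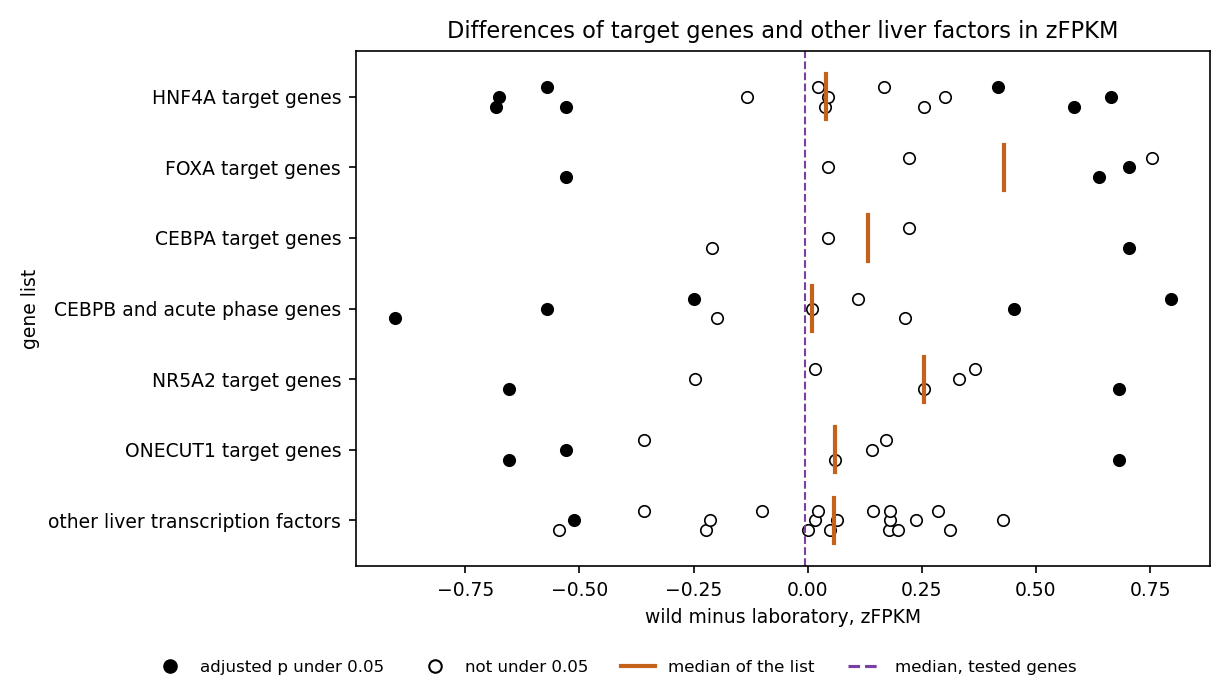
Difference of wild minus laboratory mice in zFPKM for the tested genes of 7 lists, 1 point per gene, filled for a limma adjusted p under 0.05, with the list median in orange and the median of all tested genes as a dashed line at -0.005. Genes called in both directions stand in several lists, among them those of HNF4A and FOXA targets and of acute phase genes, and a gene in more than 1 list, such as Ttr, is drawn in each.

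Markers of the cells of the liver were read to see what else differed. Of 10 hepatocyte markers 7 were tested, Alb being among the names left out for a failed estimate. Of these 7, 2 were called higher and 2 lower in the wild mice on zFPKM, against 7.28% and 7.17% of all tested genes. Called or not, 5 of the 7 had a positive difference, with a list median of 0.06. Their summed FPKM was 28402 to 39282 in the laboratory mice and 19466 to 24044 in the wild mice. Most of that sum came from Apoa1 and Ttr, the 2 that were called lower. Biliary epithelial markers were of interest because Onecut1, Foxa1 and Foxa2 are also known from bile ducts. Of 8 such markers, 2 were lower in the wild mice on zFPKM (Tff3 and Spp1), against 7.17% of all tested genes. The biliary markers had 2 lower on log2(FPKM + 0.1), against 8.19%, and 7 lower after median-centring, against 28.7%. Their summed FPKM was 74.1 to 140 in the laboratory mice and 18.3 to 33.2 in the wild mice, Tff3 was listed at 0 in wild mice 1 and 3, and Cftr was the lowest, at 0.0154 to 0.05001 FPKM. Of 6 erythrocyte genes, 5 were called lower in the wild mice on zFPKM, against 7.17% of all tested genes. On log2(FPKM + 0.1) 3 were called lower, against 8.19%, and after median-centring 4, against 28.7%. In FPKM 3 of the 6 were lower in the wild mice without overlap, against 12.1%. Their summed FPKM was 1340 to 5135 in the laboratory mice and 724 to 1581 in the wild mice. The part of these cells in the member differences was not tested. Of 7 acinar pancreas markers, read because Nr5a2, Foxa2, Onecut1 and Prox1 are also pancreatic factors, 1 (Cela1) passed the filter, Prss2 and Cpb1 were listed at 0 in all mice, and the other 4 had means under 0.05 FPKM. Of the remaining lists, none of 7 endothelial and none of 6 Kupffer cell markers passed (limma on zFPKM, 1 of each at an unadjusted p under 0.05), and 1 of 6 stellate cell markers did (Col1a1, lower in the wild mice). Of 7 lymphocyte markers 4 were lower in the wild mice on median-centred values, against 28.7% of all tested genes. On log2(FPKM + 0.1) without centring 2 were lower and 1 higher, against 8.19% and 37.9%. On zFPKM 1 was lower, against 7.17%, with a list median of -0.65. The summed FPKM of the list was 3.55 to 4.64 in the laboratory mice and 1.33 to 3.81 in the wild mice. At such low levels the pseudocount weighs on the centred differences.

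Xist stood at 7.18 and 40.6 FPKM in the wild females and at or under 0.0506 FPKM in the 4 males. All 13 female-biased liver genes were higher in the wild mice on zFPKM, and 8 of 10 male-biased genes were lower. Within the wild mice, both females were above the male for 12 of the 13 female-biased genes, the exception being Cyp2b10, at 43.4 FPKM in the male against 9.42 and 7.62 FPKM. Both were below the male for 9 of the 10 male-biased genes, the exception being Bcl6, at 2.03 FPKM in the male against 7.09 and 13.3 FPKM. The wild male was not at the laboratory level for every such gene, since Hsd3b5 stood at 4.21 FPKM in it against 60.3 to 104 FPKM in the laboratory mice. The summed FPKM of the female-biased genes was 2.88 to 6.21 in the laboratory mice, 183 in wild mouse 1, the male, and 6088 and 7714 in the wild females. For the 9 members, the mean FPKM of the wild females ranged from 0.794 (Foxa1) to 1.80 (Foxa3) times that of the wild male, and it was 1.35 times for Nr5a2.

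The mean zFPKM of the 9 members was 0.85, 0.79 and 0.43 in laboratory mice 1, 2 and 3 and 0.47, 0.81 and 0.86 in wild mice 1, 2 and 3, low in the same 2 mice whose median zFPKM was low. The tested genes whose zFPKM followed this profile most closely over the 6 mice were B230219D22Rik, Gm31057 and Lrch1, with Pearson r of 0.999, 0.997 and 0.997. All genes of a mouse share its mode and SD, and 12.6% of the 18610 other tested genes had an r above 0.9 with the profile, so the likeness is a description of these 6 mice only. B230219D22Rik stood at 0.37, 0.31 and -0.17 zFPKM in the laboratory mice against -0.10, 0.30 and 0.37 zFPKM in the wild mice.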

How the data were processed

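Liver RNA of 3 laboratory and 3 wild mice was sequenced from stranded mRNA libraries. Per the labels and the study's methods, the authors aligned reads with kalign to the masked GRCm38.p6 genome, deposited FPKM per gene from the Tuxedo pipeline, and turned them into zFPKM, a score deposited beside them. No counts were used, so the authors' count-based test was not repeated, and depth is unknown.

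Names listed once in every mouse were used (47256), less 24 with a marked failed estimate, which laboratory mouse 1 does not mark. Names with zFPKM above -3 in at least 3 mice were tested on zFPKM floored at -3, with limma 3.58.1 in R 4.3.3 (lmFit, eBayes with trend, Benjamini-Hochberg adjustment, threshold 0.05). FPKM and ratios were compared by two-sided exact permutation tests in Python 3.11.15 with scipy 1.17.1. The limma fit alone was tested on simulated zFPKM, with shifts larger than any member's zFPKM difference. Its recovery of smaller differences was not tested. Differences are wild minus laboratory, and those on log2(FPKM + 0.1) understate changes of low genes.

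Members and gene lists were chosen with earlier results of these data known. Named from each list were its highest and lowest gene by mean zFPKM and up to 5 called genes of smallest adjusted p, any tested gene of the other liver transcription factors, and the 3 genes most like the members' profile. Abcg8, Scarb1, F7, Onecut3, Prss2, Cpb1, Cyp2b10, Bcl6 and Hsd3b5 were named after their values were seen. GENCODE transcript lengths covered 88.6% of tested genes. Alternatives were other floors, filters, scalings, pseudocounts, a fit without trend, sex as a covariate, males alone, each mouse left out, and, chosen after seeing the data, removal of length trends and sex on median-centred values. Positions are 1-based and match RefSeq for all 9 members. Results for a few listed genes are not reported here.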

Additional observations from a re-analysis of the deposited data

How the results depend on the processing

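The 9 members were fitted under 22 alternatives to the zFPKM fit. Of the resulting 198 member differences, 148 kept their direction and side of the threshold. Another 23 kept their direction and passed the threshold where the reported zFPKM value did not. The other 27 turned in direction from a zFPKM value that had not passed. Among these 27, Prox1 on log2(FPKM + 0.1) also passed the threshold (limma adjusted p = 0.0474). The 0 members called higher in wild mice became 4 on log2(FPKM + 1), 5 on log2(FPKM + 0.1), and 1 (Nr5a2) with quantile normalization, with median zFPKM or median log2(FPKM + 0.1) set to 0, with sex added to the latter, and with the length trend removed on either scale. The 0 called higher in laboratory mice became 2 with quantile normalization (Cebpa and Cebpb) and 1 (Cebpb) on the other scales that centre each mouse, on both scales with the length trend removed, and with sex on median-centred values. Of all tested genes, 37.9% were called higher and 8.19% lower in wild mice on log2(FPKM + 0.1), and 18.6% and 28.7% on median-centred values. These shares were 13.9% and 14.4% with median zFPKM set to 0. They were 23.9% and 21.9% with the length trend removed from log2(FPKM + 0.1). Shares under the other settings are not given here. Leaving out 1 mouse gave 0 to 1 in each direction, Nr5a2 being called without wild mouse 1 and Cebpb without laboratory mouse 3.

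Small zFPKM differences turned in direction. With sex as a covariate, and in males alone, Hnf4a was -0.15, Foxa2 -0.087, Foxa3 -0.34 and Onecut1 -0.035, and with sex on median-centred values Hnf4a was -0.0054 and Foxa3 -0.35. Foxa3 was -0.023 with quantile normalization and -0.0037 with median zFPKM set to 0. On log2(FPKM + 1) Foxa1 was 0.15, Cebpa 0.0039 and Prox1 0.57, and on log2(FPKM + 0.1) they were 0.18, 0.0036 and 0.65. With 1 mouse left out, the zFPKM difference ranged from -0.031 to 0.17 for Hnf4a, -0.11 to 0.22 for Foxa3, -0.037 to 0.41 for Onecut1 and -0.14 to 0.11 for Prox1, and the difference in log2 ratio to Hnf4a from -0.034 to 0.86 for Foxa2 and -0.21 to 0.026 for Foxa3. The ratios without overlap, 3 of 11 in full, numbered 3 to 6 with 1 mouse left out. Fewer mice stand apart more readily, and the share of all tested genes with 1 mouse left out is not given here. The cause of these changes was not tested.

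Of all tested genes, 7.28% were called higher in wild mice and 7.17% higher in laboratory mice on zFPKM. Over all lists, 23 genes were called higher in wild mice (13 of them female-biased) and 31 higher in laboratory mice (8 of them male-biased). These became 11 and 9 with the lowest floor, 0 and 0 without a filter and in males alone, 47 and 13 on log2(FPKM + 1), 52 and 15 on log2(FPKM + 0.1), and 5 and 4 without the trend. Higher in wild mice were also 13 with zFPKM above -3 in all 6 mice, 12 with sex as a covariate and 35 with the length trend removed from log2(FPKM + 0.1). No paired analysis was made, because the groups are separate animals with no pairing between them. Males alone compare 3 laboratory mice with 1 wild mouse, which is assumed to vary like the others. With sex as a covariate, the difference by origin rests on the same 1 wild mouse.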

Other observations

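Clock and immediate early genes were read as groups outside the members' network. Of 13 tested clock genes 2 were called, against 14.4% of all tested genes. Arntl was higher and Dbp lower in wild mice on zFPKM, by 0.65 and -0.999 (limma adjusted p = 0.0367 and 0.000118), with Nr1d1 the highest of the list and Npas2 the lowest. Dbp stood at 9.62, 9.42 and 12.1 FPKM in laboratory mice 1, 2 and 3 and at 0.644, 0.867 and 22.3 FPKM in wild mice 1, 2 and 3, so the groups overlapped and wild mouse 3 was the highest of all. With sex as a covariate Arntl was not called (limma adjusted p = 0.191). The hour of sampling was not given in the sources used here. None of 9 tested immediate early genes passed the test (limma, none at an unadjusted p under 0.05), with Ier2 the highest and Fosb the lowest of them.

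Hnf4aos, transcribed opposite to Hnf4a, stood at 1.71, 2.60 and 1.70 FPKM in laboratory mice 1, 2 and 3 and at 7.70, 5.84 and 0.885 FPKM in wild mice 1, 2 and 3. Its order in the wild mice was the reverse of that of Hnf4a, which stood at 109, 138 and 164 FPKM, and the groups overlapped.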
